A study of Rattus norvegicus with 14 samples.

Results

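The collagen chain genes, each of which encodes 1 polypeptide of a collagen triple helix, were followed in the skin of hairless rats exposed to 94 GHz millimetre waves or sham exposed. A gene was a member when a probe's accession led to a rat RefSeq symbol made of Col, a number, a and a number, and Col17a1 was left out. This gave 25 probes of 18 genes among the 30367 probes of the array. Of these, 22 probes of 17 genes passed the filter on dim probes and were measured, among 18611 measured genes in all. They comprised 7 fibrillar chains, 1 of 2 matched basement membrane chains, 1 beaded chain, 3 fibril-associated chains (FACIT) and 5 other chains. The RefSeq gene table holds 43 such symbols, and 25 of them had no matched probe and were not analysed here, among them Col4a2, Col5a2, Col6a1 and Col12a1.

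All animals were males of the strain labelled CD Haireless rat, and the labels give no age. Exposure lasted 3 h on each of 3 days a week for 5.5 months in 6 rats. The 8 control rats went through sham exposure on the same schedule, as far as the labels state it. Skin was taken after the last session, and RNA of 1 biopsy per rat was hybridised to 1 single-colour array. Rats were housed in pairs, but the labels do not say which rats formed a pair, so p-values treat each rat as independent. The comparison asked whether long exposure changed gene expression in skin.

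Collagens are secreted as 3 chains wound around each other, and regularly spaced glycines let the helix close. In dermis, fibroblasts make most of the type I collagen (chains from Col1a1 and Col1a2), and type III (Col3a1) and type V (Col5a1) are built into the same fibrils. Type IV forms the sheet-like network of basement membranes, type VI forms beaded filaments, and type VII anchors the epidermal basement membrane to the dermis. FACIT collagens such as type XIV sit on the surface of fibrils. Types II, IX and XI are best known from cartilage.

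Control sequence upstream of the start site is shown for 4 members on which the results below turn, Col1a2 and Col5a1 from the dermal fibril, and Col4a1 and Col18a1 from basement membranes. Each sequence is the 250 bases before the annotated start from RefSeq, assembly GRCr8, 5′ to 3′ on the strand of the gene, which is the plus strand for all 4. Col1a2 lies at chr4:33518307-33518556, Col5a1 at chr3:31606630-31606879, Col4a1 at chr16:84885347-84885596 and Col18a1 at chr20:11473395-11473644. Capitals mark matches to a TATA box, a CCAAT box or a GC box on either strand, as spelled out after the sequences.
Col1a2: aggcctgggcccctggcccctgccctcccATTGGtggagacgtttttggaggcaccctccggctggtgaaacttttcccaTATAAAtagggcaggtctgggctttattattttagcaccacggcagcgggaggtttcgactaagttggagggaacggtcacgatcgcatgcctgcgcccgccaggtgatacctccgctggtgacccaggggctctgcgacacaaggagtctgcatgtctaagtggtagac
Col5a1: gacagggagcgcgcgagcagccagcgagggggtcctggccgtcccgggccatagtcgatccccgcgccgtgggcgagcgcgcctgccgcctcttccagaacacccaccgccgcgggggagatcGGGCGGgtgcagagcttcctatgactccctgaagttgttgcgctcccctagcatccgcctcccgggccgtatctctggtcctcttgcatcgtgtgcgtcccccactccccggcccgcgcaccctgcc
Col4a1: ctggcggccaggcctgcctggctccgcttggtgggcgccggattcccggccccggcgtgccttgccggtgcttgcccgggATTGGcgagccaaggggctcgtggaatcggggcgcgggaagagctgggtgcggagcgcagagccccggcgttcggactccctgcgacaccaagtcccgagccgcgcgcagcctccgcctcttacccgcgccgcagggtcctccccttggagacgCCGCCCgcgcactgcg
Col18a1: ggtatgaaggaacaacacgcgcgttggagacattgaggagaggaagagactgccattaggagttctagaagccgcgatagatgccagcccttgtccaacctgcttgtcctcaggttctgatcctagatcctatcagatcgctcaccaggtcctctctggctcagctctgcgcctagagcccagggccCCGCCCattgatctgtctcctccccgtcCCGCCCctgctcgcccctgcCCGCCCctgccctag

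A promoter was held by the table for 12 of the 17 measured members. The table did not list Col1a1, Col2a1, Col3a1, Col6a2 and Col14a1. The GC box, searched as GGGCGG on both strands, was found in 8 of 12 members and in 30.5% of all 33469 RefSeq promoters of the same length. The CCAAT box, searched by those 5 letters on both strands, was found in 3 of 12 members (Col1a2, Col5a3 and Col4a1) and in 34% of all promoters. The TATA box, searched as TATAAA on both strands, was found in 2 of 12 (Col1a2 and Col13a1) and in 12.9% of all promoters. No motif contains another, and a match describes the sequence and not a bound site.

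Levels below are log2 processed signals minus the 75th percentile of the same array, so 0 is the level of a probe at that percentile, and differences are exposed minus sham. They compare animals within a probe and carry no order between genes. The 75th percentile itself was 804.5 scanner units on the array of sham animal 6 and between 1075 and 1967 on the others. On that array the 99th percentile of the measured genes lay 6.67 above the 75th, against 5.54 to 6.04 on the others, all on the log2 scale. Skin markers were present: all 10 matched fibroblast markers and all 7 matched keratinocyte markers were well above background on all 14 arrays, against 1 of 5 matched cartilage markers. A muscle marker score, the mean log2 deviation of 10 measured markers from their means over animals, ran from -2.86 to 5.02 between biopsies, with means of 0.85 in exposed and -0.64 in sham animals. A biopsy mixes cell types, so fewer cells of a type and less RNA per cell cannot be told apart. The arrays of exposed animal 3 and sham animal 6 recur in what follows.

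Collagen chain expression did not pass the test between exposed and sham skin for any of the 17 measured members. At a Benjamini-Hochberg adjusted p under 0.05 in limma, 0 members were called, as were 0 of 18611 genes (0%). At an unadjusted p under 0.05 there was 1 member, Col13a1, beside 3.42% of all genes, or 2.39% with a negative difference as here. Leaving out sham animal 6 brought the share of all genes to 8.32%, and leaving out exposed animal 3 brought it to 5.31%. The sign was negative for 12 members and positive for 5, with 57.0% of all genes negative, and the median difference was -0.12 for the members and -0.019 for all genes. With the muscle score as a covariate the median of the members was -0.061. Groups without overlap were found for 0 members and for 0.0322% of all genes. The 95% interval of the difference lay within 2-fold either way for 17 of 17 members and within 1.5-fold for 10 of 17 (58.8%), against 94.7% and 80.3% of all genes.

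**Figure D1:**
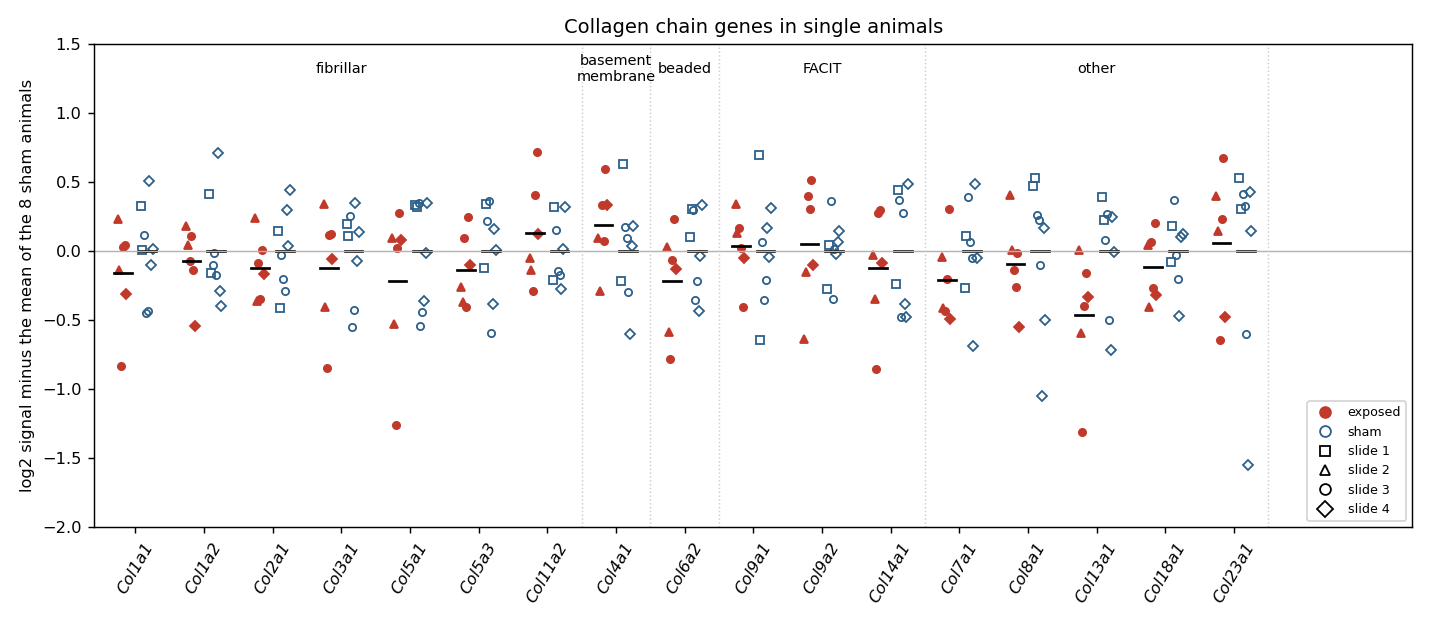
Log2 signal of each collagen chain gene in each animal, minus the mean of the 8 sham animals for that gene. Filled red symbols are exposed and open blue symbols sham animals, symbol shapes are the 4 slides, black bars are group means, and the groups overlap for all 17 genes.

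Type I collagen, the bulk of dermal fibrils, was measured through both its chains. Col1a1 lay at 6.58, 7.36 and 7.65 (lowest, median, highest) in the 6 exposed animals and at 6.96, 7.43 and 7.92 in the 8 sham animals. Of the exposed animals, 5 fell inside the sham range and exposed animal 3 lay below it. The means were 7.25 ± 0.38 (SD, n = 6) and 7.42 ± 0.33 (SD, n = 8), a difference of -0.16 (SE 0.18, 95% interval -0.55 to 0.22, unadjusted p = 0.383). Col1a2 lay at 6.88, 7.41 and 7.61 in exposed and at 7.03, 7.30 and 8.14 in sham animals. Here exposed animal 6 was the one below the sham range. Its difference was -0.068 (95% interval -0.43 to 0.30, unadjusted p = 0.694).

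Type III and type V chains share the type I fibril. Col3a1 lay at 5.15, 6.03 and 6.34 in exposed and at 5.45, 6.13 and 6.35 in sham animals, a difference of -0.12 (SE 0.19, 95% interval -0.53 to 0.29, unadjusted p = 0.532). Again only exposed animal 3 was below the sham range. Col5a1, which nucleates fibrils and sets their width, lay at -0.98, 0.32 and 0.55 in exposed and at -0.27, 0.43 and 0.62 in sham animals. Exposed animal 3 stood 1.16 below the mean of the 14 animals for Col5a1, and the other 5 exposed animals lay within the sham range. The difference was -0.22 (SE 0.24, 95% interval -0.73 to 0.29, unadjusted p = 0.376), the smallest p among the fibrillar chains, and it was -0.012 without exposed animal 3 and -0.043 with slide as a block. Col5a3 differed by -0.13 (unadjusted p = 0.423).

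The cartilage-type fibrillar chains Col2a1 and Col11a2 were well above background on all 14 arrays and lay far below the 75th percentile. Col2a1 averaged -5.39 ± 0.23 (SD, n = 6) in the exposed group and -5.27 ± 0.29 (SD, n = 8) in the sham group, a difference of -0.12 (unadjusted p = 0.407). Col11a2 averaged -4.86 ± 0.37 and -4.99 ± 0.24, a difference of 0.13 (unadjusted p = 0.421), and was the only fibrillar chain with a positive difference.

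Col4a1, a chain of the basement membrane network around vessels, nerves and epithelia, lay at 0.51, 1.02 and 1.39 in exposed and at 0.20, 0.87 and 1.43 in sham animals. All 6 exposed animals fell inside the sham range. The difference was 0.19 (SE 0.18, 95% interval -0.19 to 0.57, unadjusted p = 0.298). The sign depended on the probe: the second kept probe gave -0.27 (SE 0.28), and the mean of both probes gave -0.038. The probes of Col4a1 correlated at r = 0.34 over the 14 animals, both being well above background on every array.

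Col6a2, a chain of the beaded filaments that surround cells and fibrils, lay at 3.53, 4.22 and 4.55 in exposed and at 3.88, 4.34 and 4.64 in sham animals. Exposed animals 2 and 3 were below the sham range, and 4 lay within it. The difference was -0.21 (SE 0.18, 95% interval -0.59 to 0.16, unadjusted p = 0.240). Among FACIT chains, Col14a1 lay at 0.53, 1.33 and 1.69 in exposed and at 0.91, 1.40 and 1.87 in sham animals, a difference of -0.12 (SE 0.22, unadjusted p = 0.578), with exposed animal 3 again the only one below the sham range. Col9a1 and Col9a2, chains of the FACIT collagen of cartilage, differed by 0.034 (unadjusted p = 0.852) and 0.055 (unadjusted p = 0.746).

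Col7a1, the chain of the anchoring fibrils beneath the epidermis, lay at 0.53, 0.71 and 1.33 in exposed and at 0.33, 1.03 and 1.503 in sham animals. All exposed animals were inside the sham range, which sham animal 6 set at its lower end. The difference was -0.21 (SE 0.18, 95% interval -0.59 to 0.16, unadjusted p = 0.246). Col18a1, a heparan sulfate proteoglycan of basement membranes whose cleaved end is endostatin, lay at 0.11, 0.41 and 0.72 in exposed and at 0.05, 0.56 and 0.89 in sham animals. It had the narrowest interval of the 17 members (difference -0.11, SE 0.13, 95% interval -0.40 to 0.17). Col8a1, a short-chain collagen of vessel walls, differed by -0.092 (unadjusted p = 0.695), and the transmembrane collagen Col23a1 by 0.056 (unadjusted p = 0.863).

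Col13a1, a transmembrane collagen found at cell contacts and neuromuscular junctions, had the smallest p of the members. It lay at -6.25, -5.31 and -4.93 in exposed and at -5.66, -4.78 and -4.55 in sham animals. All 6 exposed animals were below the sham median, and 5 were still within the sham range. The difference was -0.46 (SE 0.21, 95% interval -0.92 to -0.0036, unadjusted p = 0.0484, adjusted p = 0.9996 over all genes by limma). Its probe is dim: 5 of 6 exposed arrays and 7 of 8 sham arrays had it well above background. The difference was -0.29 without exposed animal 3, whose value was the lowest, -0.57 within slide 3, -0.17 within slide 4 and -0.15 after normexp background correction.

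**Figure D2:**
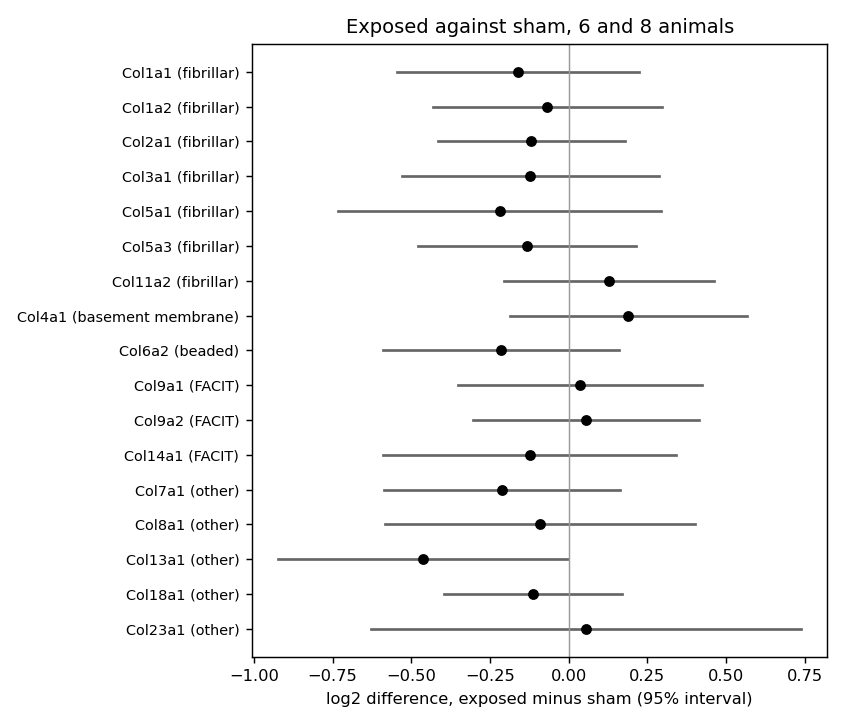
Difference in log2 signal between 6 exposed and 8 sham animals for each collagen chain gene (points) with the 95% interval from limma (lines). The interval crosses 0 for all genes but Col13a1, whose upper end lies at -0.0036.

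Arrays came on 4 slides, with only sham arrays (2) on slide 1, only exposed arrays (2) on slide 2, 3 arrays from either group on slide 3, and 1 exposed array beside 3 sham ones on slide 4. In a fit with group and slide, 0 members differed between slides at an adjusted p under 0.05, as did 0 of all genes (0%). At an unadjusted p under 0.05 there were 2 members, with 2.70% of all genes. Col8a1 was one (limma moderated F test, unadjusted p = 0.0130), with means of -3.67 on slide 1 and -3.96 on slide 2. Its means on slide 3 were -4.31 in exposed and -4.04 in sham animals, and on slide 4 the exposed animal was at -4.72 and the sham mean at -4.63. Col9a2 was the other (limma moderated F test, unadjusted p = 0.0494). With slide as a block 14 of 17 members were negative, within slide 3 there were 8 and within slide 4 there were 13. The shares of all genes that were negative in these settings were 60.3%, 55.6% and 56.8%. Within slide 3, the only slide with both groups balanced, Col1a1 differed by 0.0035 and the median over members was 0.0035.

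Members varied between animals more widely than a typical gene on the array. The median within-group SD was 0.34 for members and 0.24 for all genes, and the median member lay at the 71.6th percentile of genes by SD. Col18a1 was the steadiest (SD 0.25, a 1.79-fold span over the 14 animals), and Col23a1 the most variable (SD 0.64, a 4.65-fold span). These are descriptions, and members were not tested against other genes.

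The spread was carried in part by single animals. Exposed animal 3 had the lowest value of all 14 in 7 members: Col1a1, Col3a1, Col5a1, Col6a2, Col11a2, Col13a1 and Col14a1. Its fibroblast marker score was -0.62, against -0.27 to 0.27 in the others, and its macrophage score of -0.89 was also the lowest. Without this animal Col1a1 differed between groups by -0.027, Col3a1 by 0.023, Col14a1 by 0.022 and Col6a2 by -0.10. Whether the lower fibroblast markers play a part in its lower collagen values was not tested. In the opposite direction, sham animal 3 was above the mean of the 14 animals in 16 of 17 members, and exposed animal 5 and sham animal 8 in 15 each.

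Sham animal 6 stood at both ends. It was the highest of the 14 animals for Col1a1, Col1a2 and Col3a1, by 0.58, 0.74 and 0.40 above their means. It was the lowest for Col4a1, Col7a1, Col8a1, Col18a1 and Col23a1. Its hair follicle (-1.54), adipocyte (-1.06), endothelial (-0.87), smooth muscle (-0.83) and Schwann cell (-0.60) scores were the lowest too. With quantile normalization, which gives every array the same distribution of signals, it ranked 13th of 14 for Col1a1 and Col1a2 and 10th for Col3a1, and it remained the lowest in the same 5 genes. Which placement of this animal is right for the type I and III chains was not tested.

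Pairs of chains were compared over the 14 animals, 4 pairs that share a molecule or a fibril and 2 between classes (Col1a1 with Col4a1 and with Col7a1), with permutation tests and Benjamini-Hochberg adjustment over the 6 pairs. Col1a1 and Col3a1 rose and fell together (Pearson r = 0.93, Spearman rho = 0.96, permutation p = 1e-05, at or next to the smallest that 100000 permutations can give, adjusted p = 6e-05). The value was 0.88 without exposed animal 3 and sham animal 6, 0.92 after slide means were removed and 0.96 with quantile normalization. Col1a1 and Col5a1 correlated at r = 0.68 (rho = 0.62, permutation p = 0.00818, adjusted p = 0.0245), with an adjusted p of 0.0627 for rho. Without the same animals r was 0.75, and within slides it was 0.63.

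The chains of the type I molecule itself gave a lower value. Col1a1 and Col1a2 correlated at r = 0.56 (rho = 0.52, permutation p = 0.0364, adjusted p = 0.0727), which missed the threshold. Without exposed animal 3 and sham animal 6 r was 0.53, without sham animal 6 alone 0.38, and over the 6 animals of slide 3 it was 0.15. With quantile normalization r was 0.70 (adjusted p = 0.00966). The difference between this correlation and that of Col1a1 with Col3a1 was not tested. Col1a2 in turn followed how far the 99th percentile of an array lay above the 75th (r = 0.81 over 14 arrays, as a description), with -0.40 after quantile normalization. The positive r was largest for Col1a2, ahead of Col9a1 (0.39) and Col2a1 (0.30), and r was negative for most other members. It was -0.71 for Col4a1, and Col7a1, Col8a1, Col13a1, Col18a1 and Col23a1 lay between -0.74 and -0.54. With quantile normalization r was -0.73 for Col4a1 and -0.79 for Col23a1. For Col1a1 r was 0.28, and -0.58 with quantile normalization. The part of this array property in the correlations was not tested.

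**Figure D3:**
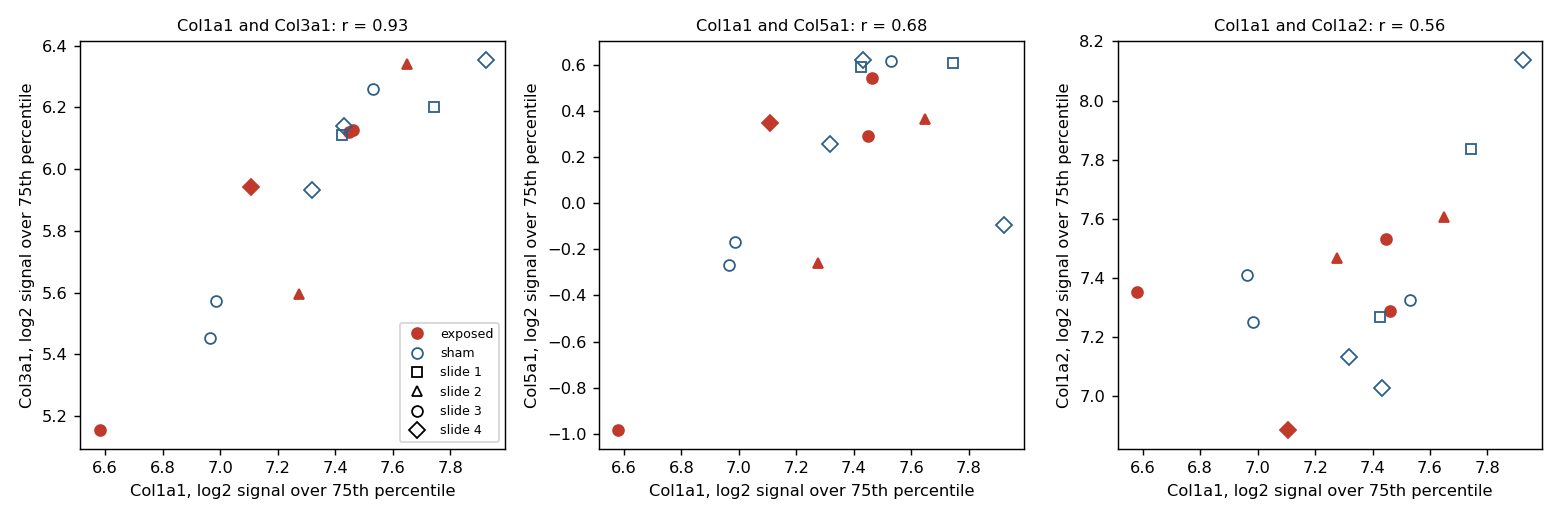
Log2 signal over the 75th percentile of Col1a1 (horizontal) against Col3a1, Col5a1 and Col1a2 (vertical) in 14 animals, filled red for exposed and open blue for sham, with shapes for the slide. Points lie close to a line for Col3a1 (r = 0.93), while sham animal 6, at the far right, sits low for Col5a1 and highest for Col1a2.

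The other 3 pairs gave no correlation past the threshold. Col9a1 and Col9a2, both dim, gave r = -0.29 (rho = -0.26, permutation p = 0.313, adjusted p = 0.376). Col1a1 with Col4a1 gave r = -0.30 (rho = -0.18, permutation p = 0.289, adjusted p = 0.376), and 0.13 without exposed animal 3 and sham animal 6. Col1a1 with Col7a1 gave r = 0.022 (rho = 0.037, permutation p = 0.942, adjusted p = 0.942), and 0.57 with quantile normalization (adjusted p = 0.0481).

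Over all 136 pairs of members the median r was 0.29, and 36 pairs were above 0.5. All pairs come from the same 14 arrays and share the scaling of each array, so these values are descriptions. Col5a1 with Col6a2 was the closest pair (r = 0.95), followed by Col1a1 with Col3a1, Col3a1 with Col5a1 (0.83), Col6a2 with Col14a1 (0.81) and Col7a1 with Col18a1 (0.80). The 5 chains of the mixed class, which hold transmembrane, anchoring and vessel wall collagens, had a median r of 0.62, with 9 of their 10 pairs above 0.5. For Col8a1 and Col23a1 r was 0.77, and 0.56 without sham animal 6. Leaving out that animal brought Col7a1 with Col8a1 to 0.41, Col18a1 with Col23a1 to 0.43 and Col8a1 with Col18a1 to 0.40. Col13a1 with Col18a1, already below 0.5, came to 0.36, and the other pairs of this class stayed above 0.5. Negative values were most frequent for Col1a2, in 12 of its 16 pairs, and for Col9a1, in 11 of 16, down to -0.63 for Col1a2 with Col4a1 and -0.51 for Col9a1 with Col4a1. The negative values of Col1a2 changed with the scaling and with sham animal 6. Without that animal r was -0.41 with Col4a1, 0.63 with Col8a1 and 0.41 with Col23a1. The part of the scaling and of this animal was not tested. With quantile normalization Col1a2 was negative only with Col2a1 (-0.47), Col9a1 (-0.28) and Col9a2 (-0.40). Its value with Col4a1 became 0.21 there, and with Col13a1 and Col23a1 it became 0.72. Under that scaling 51 pairs were above 0.5.

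**Figure D4:**
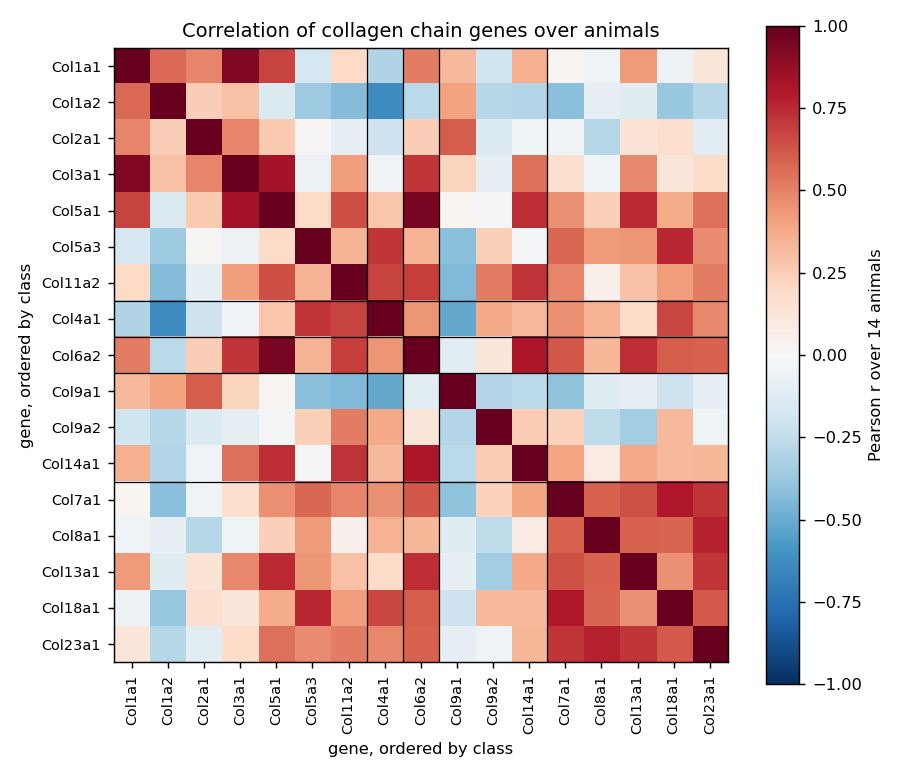
Pearson r over 14 animals between the log2 signals of each pair of collagen chain genes, ordered by class with lines between classes, red for positive and blue for negative. The block of Col7a1, Col8a1, Col13a1, Col18a1 and Col23a1 is red throughout (median r 0.62), and the rows of Col1a2 and Col9a1 are mostly blue (12 and 11 of 16 pairs negative). With quantile normalization, not shown, Col1a2 was negative only with Col2a1, Col9a1 and Col9a2.

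Col1a1 and Col4a1 were also compared with 6 tissue marker scores each, 12 relations adjusted together. Collagens were left out of the marker lists. Col4a1 followed the hair follicle score, made of hair keratins and follicle regulators (r = 0.77, rho = 0.78, permutation p = 0.00124, adjusted p = 0.0149). It was 0.66 without sham animals 1 and 6, which had the lowest scores, and 0.78 within slides. This held for the brighter probe alone: with the second Col4a1 probe r was 0.067 (adjusted p = 0.912). Col4a1 also followed the endothelial score (r = 0.71, rho = 0.64, permutation p = 0.00346, adjusted p = 0.0208, with an adjusted p of 0.0914 for rho). Its r was 0.39 without exposed animal 2 and sham animal 6, and 0.78 over the 6 animals of slide 3, which holds neither of them. With the second Col4a1 probe the endothelial r was 0.46 (adjusted p = 0.303). Without sham animal 6 alone it was 0.51 (adjusted p = 0.291), and with quantile normalization 0.72 (adjusted p = 0.0113). The second-probe, single-animal and quantile settings for marker scores were chosen after the data were seen.

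Col1a1 and the fibroblast score correlated at r = 0.60 (rho = 0.46, permutation p = 0.0238, adjusted p = 0.0928), short of the threshold, and at 0.20 without exposed animals 2 and 3. Removing sham animal 6 alone gave 0.77 (adjusted p = 0.0379), and quantile normalization gave 0.88 (adjusted p = 0.00408). The second Col1a1 probe gave 0.85 (adjusted p = 0.0039), and the second Col4a1 probe gave 0.76 with the same score (adjusted p = 0.0039). The remaining 9 relations had adjusted p-values between 0.0928 and 0.838.

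**Figure D5:**
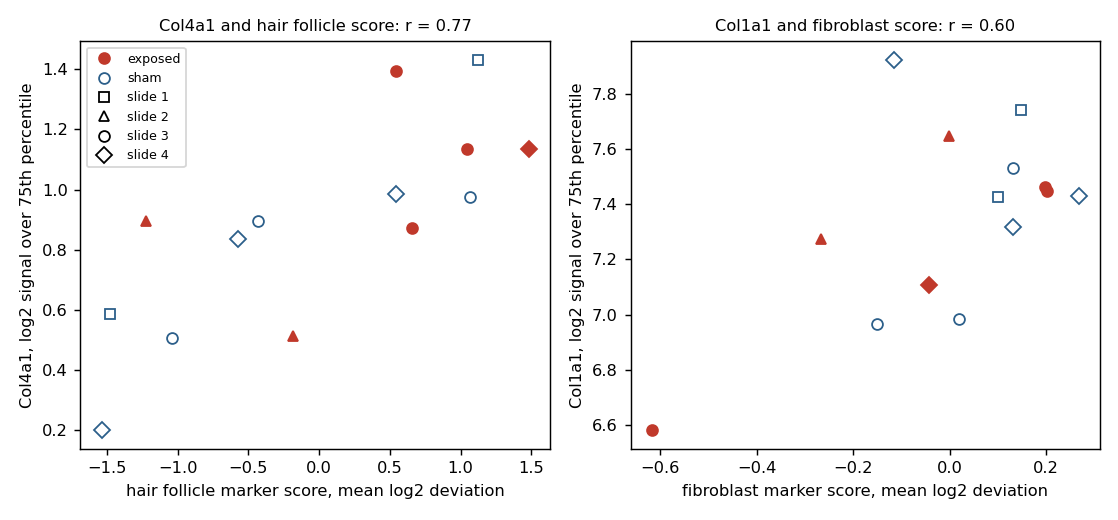
Left, Col4a1 (brighter probe) against the hair follicle marker score. Right, Col1a1 against the fibroblast marker score, in 14 animals (filled red exposed, open blue sham, shapes for the slide); a score is a mean log2 deviation from the mean over animals, r is 0.77 on the left and 0.60 on the right, and exposed animal 3 is the point at the lower left of the right panel.

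For the 5 members with more than 1 kept probe, the probes of a gene correlated over animals at r = 0.93 for Col14a1, 0.77 for Col1a1, 0.72 for Col23a1, 0.51 for Col11a2 and 0.34 for Col4a1. For Col1a1, the second probe differed between groups by -0.28 (unadjusted p = 0.175), in the same direction as the first.

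The genes whose pattern was most like that of Col1a1 were ranked by Pearson r over the 14 arrays among 11309 other genes with a symbol. Apart from members, the 10 highest were Nrsn2 (0.94), S1pr2 (0.90), Spata13 (0.90), Klhdc1 (0.89), Myo7a (0.88), C1qtnf6 (0.86), Aldh1l2 (0.85), Gphb5 (0.85), LOC690045 (0.85) and Stxbp6 (0.84). Col3a1 ranked 2nd in that order, Col5a1 176th and Col1a2 481st. The list changed with the scaling, while without sham animal 6 its 10 genes had r between 0.79 (Stxbp6) and 0.93 (Spata13). With quantile normalization the 10 highest were P4ha2 (0.94), Fkbp10 (0.93), Mfap4 (0.92), Loxl1 (0.92), Htra1 (0.92), Ccdc80 (0.92), Lrp1 (0.91), Creb3l1 (0.91), Fstl1 (0.91) and Mrc2 (0.91), and 0 genes were shared between the lists. P4ha2 is a subunit of collagen prolyl hydroxylase, Fkbp10 a collagen chaperone, Loxl1 a cross-linking oxidase and Mrc2 a collagen uptake receptor. Under that scaling Col5a1 ranked 1st, Col3a1 2nd and Col6a2 15th, while Nrsn2 dropped to r = 0.47.

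Genes that make, fold, cross-link, bind and break down collagen were read alongside. Of 52 listed genes 37 were measured, and 0 were called at an adjusted p under 0.05, as were 0% of all genes. At an unadjusted p under 0.05 there was 1, Mmp14, beside 3.42% of all genes. The difference was negative for 33 of 37, where 57.0% of all genes were negative, and its median was -0.12 against -0.019 for all genes. The number with an unadjusted p under 0.05 was 5 when sham animal 6 was left out, beside 8.32% of all genes. It was 4 for exposed animal 5 (4.03% of all genes), 2 for sham animal 4 (3.7%) and 7 with array weights (12.7%). It was 0 without exposed animal 1, 2 or 3 or sham animal 1, 3 or 8, and 0 with the slide block, quantile normalization or the muscle score. Genes of this pathway vary together over animals and are not independent counts. The count of negative genes was 27 without exposed animal 3, 27 within slide 3, 24 within slide 4 and 31 with quantile normalization. In the same order, 57.0%, 55.6%, 56.8% and 52.0% of all genes were negative. The fibroblast marker score averaged -0.089 in exposed and 0.066 in sham animals, and its part in this count was not tested.

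By role, the hydroxylases and glycosyltransferases, which modify prolines and lysines of the nascent chain, were negative in 11 of 13, beside 57.0% of all genes. The lysyl hydroxylase Plod1 differed by -0.18 (unadjusted p = 0.0813), and the prolyl 3-hydroxylases P3h1 and P3h3 by -0.16 and -0.14 (unadjusted p = 0.160 and 0.224). Chaperones and export factors were negative in 5 of 5, with the secretory transcription factor Creb3l1 at -0.21, the chaperone Fkbp10 at -0.12 and Sparc at -0.058. Processing and cross-linking enzymes were negative in 7 of 8, with the procollagen C-proteinase Bmp1 at -0.18 and the lysyl oxidase family members Loxl2 and Loxl3 at -0.21 and -0.29. Receptors and uptake genes were negative in 5 of 6, with the integrin chain Itga10 at -0.22 and the collagen receptor kinase Ddr2 at -0.10. The integrin chain Itgb1 had the smallest p of that list (difference -0.12, limma unadjusted p = 0.0707). None of the 32 measured genes in those 4 lists had an unadjusted p under 0.05.

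The degrading enzymes were negative in 5 of 5. Mmp14, the membrane metalloproteinase that cleaves fibrillar collagen and activates Mmp2, averaged 3.44 ± 0.20 (SD, n = 6) in the exposed group and 3.74 ± 0.27 (SD, n = 8) in the sham group. The difference was -0.30 (SE 0.13, 95% interval -0.58 to -0.027, unadjusted p = 0.0336, adjusted p = 0.9996 by limma). The gelatinase Mmp2 differed by -0.28 (unadjusted p = 0.0789) and cathepsin K (Ctsk) by -0.22 (unadjusted p = 0.105). The signs of synthesis and degradation genes were thus mostly the same, and none passed the adjusted threshold.

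The remaining matched member, Col4a4, a chain of specialised basement membranes, did not pass the filter. Its probe was well above background on 2 of 6 exposed arrays and on 0 of 8 sham arrays, at -6.03 ± 0.38 (SD, n = 6) and -6.25 ± 0.47 (SD, n = 8). The groups overlapped, with sham animal 6 at -5.60 above 5 of the 6 exposed animals. Of the 3 probes of Col9a1 the other 2 were also too dim, with 1 exposed array and 0 sham arrays well above background between them.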

How the data were processed

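Spot intensity, linear and background-subtracted, was written to the deposited files by Agilent Feature Extraction 10.7.3.1, per the file headers. A second source, the authors' deposited log2 table (15168 probes, 10 members with a value, normalization not given in the sources used here), served as an alternative. Of 62976 spots, 4259 control spots and outlier-marked spots were left out, except 30 values marked on every spot. Signals were put on the log2 scale, the array's 75th percentile was subtracted and spots of a probe were averaged. Probes well above background on at least 6 of 14 arrays were kept (21014), and the brightest kept probe stood for its gene. Accessions, stripped of their version, were looked up in RefSeq genes of assembly GRCr8, which named 17990 of 30367 probes (59.2%). The array design names no assembly, so only promoter coordinates of GRCr8 are given.

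Groups came from the treatment in the labels, and animals are numbered only as names. Exposed against sham was fitted in R 4.3.3 by limma 3.58.1 (lmFit, then eBayes; two-sided, Benjamini-Hochberg over 18611 genes), and slide by a moderated F test. Simulated data with known changes in 200 genes were used to check the fit. Correlations used 100000 permutations. The number of arrays limits the precision. The members, gene lists and tests were chosen with earlier results of these data known. Genes named are every member, the 3 smallest p-values in each pathway list and the 10 non-members closest to Col1a1. Of 15 chain pairs listed, 9 had a chain without a matched probe, and protein sequences were not used here. Alternatives covered background correction, normalization, filter, marked spots, probe choice, slide, array weights, a muscle score covariate, the authors' values and leaving out each animal.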

Additional observations from a re-analysis of the deposited data

Results flagged for a closer look

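Col4a4, which was outside the comparison because its probe was too dim, was well above background on 2 of 6 exposed arrays and on 0 of 8 sham arrays. Its signal in the exposed group was -6.03 ± 0.38 (SD, n = 6) against -6.25 ± 0.47 (SD, n = 8) in the sham group, so the levels overlapped. Among the 34 groups formed by 17 members in exposed and in sham animals, 0 held a single animal beyond Dixon's limit, where chance gives about 1 in 20.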

How the results depend on the processing

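In the alternatives run for it and with each animal left out, 0 collagen chain genes passed the adjusted threshold between groups or between slides, 0 of all genes passed it between groups, and the median difference of the members ran from -0.17 to -0.027 with single animals left out (-0.027 without exposed animal 3), was 0.0035 within slide 3 and -0.061 with the muscle score. The single member with an unadjusted p under 0.05, Col13a1, gave a count of 0 with normexp, without a filter, with probes above background on all 14 arrays (which drops it), with the slide block, within slide 3, within slide 4, with the muscle score and in the authors' deposited values (which do not include it), 4 with array weights (Col13a1, Col7a1, Col18a1 and Col5a3, where 12.7% of all genes had such a p), and 0 to 1 with single animals left out. Array weights gave sham animal 6 the lowest weight (0.127). Signs turned within slide 3 for Col1a1 (0.0035), Col1a2 (0.063), Col2a1 (0.030) and Col3a1 (0.039); within slide 4 for Col14a1 (0.035), Col23a1 (-0.15), Col5a1 (0.087), Col9a1 (-0.20) and Col9a2 (-0.16); with array weights for Col1a2 (0.085), Col3a1 (0.0072), Col23a1 (-0.12) and Col9a2 (-0.022); with the slide block for Col23a1 (-0.023) and Col9a1 (-0.0039); with normexp for Col23a1 (-0.0063); and with the mean of probes for Col4a1 (-0.038). With single animals left out, Col1a1 ran from -0.24 to -0.027, Col5a1 from -0.32 to -0.012, Col14a1 from -0.21 to 0.022, Col1a2 from -0.12 to 0.034, Col23a1 from -0.17 to 0.20, Col3a1 from -0.21 to 0.023, Col9a1 from -0.057 to 0.13 and Col9a2 from -0.037 to 0.19. Pearson r of Col9a1 with Col9a2 was 0.61 with normexp. That of Col1a1 with Col1a2 was 0.70 with quantile normalization and 0.59 after slide means; with Col4a1 it was 0.38 with quantile normalization, 0.53 with the mean of probes and 0.13 without the 2 farthest animals; with Col7a1 it was 0.57 with quantile normalization. Against the fibroblast score Col1a1 gave 0.88 with quantile normalization, 0.77 without sham animal 6 and 0.85 with its second probe. Col4a1 with its second probe gave 0.067 against the hair follicle and 0.46 against the endothelial score, and the latter was 0.51 without sham animal 6. The causes were not tested. The alternatives on marker relations and those without sham animal 6 were chosen after seeing the data. No paired analysis was possible because replicate numbers were given in accession order only. The planned count of glycine repeats was not run. The dim members Col2a1, Col8a1, Col9a1, Col9a2, Col11a2, Col13a1 and Col23a1 had group means between -5.46 and -4.17, nearest to the lowest signals called above background (-8.41 to -6.68 over arrays).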
